A study of Mus musculus with 47 samples.

Results

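Brains of Daxx S226A embryos were compared with brains of their wild-type littermates at embryonic day 18.5 (E18.5). The 8 brain libraries of the S226A litters were taken by their labels, 4 from homozygous mutants (genotype S226A/S226A) and 4 from wild-type (WT) embryos, out of 47 libraries in the series. Each of 4 litters gave 1 mutant and 1 wild-type brain, and replicates 1 to 4 stand for litters 2972, 2881, 2875 and 2970. All 20456 genes listed were read, and the 16892 that passed a filter on low counts over the series were tested.

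Daxx binds the histone variant H3.3 and, with the chromatin remodeler Atrx, places it into heterochromatin. The study made 2 knock-in alleles to separate these contacts, S226A, which was designed to lose the contact with H3.3, and Y130A, which was designed to lose the contact with Atrx, and sequenced RNA of liver, lung and brain at E18.5. All embryos used here were of strain C57BL/6 by their labels. The alleles had been made by genome editing in C57BL/6N zygotes, with silent changes beside the mutated codon, and the founders were crossed back to C57BL/6J. The S226A allele is present in every cell of the embryo, and not only in one cell type. Each library is whole frozen brain, so a change can come from any cell in it, including blood and meninges. The comparison answers which genes differ in the fetal brain when Daxx carries the S226A change.

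The serine changed in S226A lies in exon 3 of the 8 exons of Daxx (GENCODE annotation, GRCm38, plus strand, chr17:33911658-33911720). The reference coding sequence around it is shown because it is the site that distinguishes the groups, with the serine codon, at 33911688 to 33911690, in capitals.
Daxx S226A codon: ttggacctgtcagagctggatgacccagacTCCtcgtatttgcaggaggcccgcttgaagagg
Daxx RNA itself (ENSMUSG00000002307.15, chromosome 17, 33909414 to 33915590) had 1245, 1042, 1074 and 1051 normalized counts in the WT brains of litters 1 to 4 and 1091, 1038, 1159 and 1124 in the S226A brains. A normalized count is the number of reads of a gene scaled to a library of average size by edgeR's TMM factors. The groups overlapped and the means were 1103 ± 95.8 and 1103 ± 51.5 (SD, n = 4 each), with a log2 fold change of 0.00064 (SE 0.089). These values are RNA and do not show the level of the protein. By the study's own blots of embryonic fibroblasts and E18.5 lung, Daxx protein was decreased in S226A and increased in Y130A. The alleles thus differ in Daxx protein as well as in the contact changed, and the part of either in the results was not tested. Of the 14 genes for Daxx, H3.3 and their partners, 0 passed the test at an adjusted p below 0.05 in edgeR or DESeq2 and 0 had an unadjusted p below 0.05, and their median log2 fold change was 0.0092. H3f3b, 1 of the genes that encode H3.3, had 0.024 (SE 0.12), Atrx had -0.010 (SE 0.067) and Cbx5, which encodes a heterochromatin protein, had 0.010 (SE 0.068).

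The 8 libraries held 20318413 to 25051861 reads on genes. Brain identity was checked with marker lists: radial glia, neuron and astrocyte genes were at high levels in all 8 libraries, with summed normalized counts of 42163 to 48763 in WT and 46027 to 47061 in S226A brains for radial glia and dividing progenitors. Reads on 4 Y-linked genes were 1 to 17 in replicates 1 and 4 of both groups and 6079 to 7134 in replicates 2 and 3, so that littermates were of the same sex. WT replicate 2 stood apart in Col1a1, a collagen of bone and meninges, with 10796 normalized counts against 2061 to 2940.4 in the other WT brains and 2007 to 3393 in the S226A brains. The part of tissue collection in the results was not tested. Without that library, 35 of the 41 standard calls and 12 of the 21 stringent calls described next were kept, and the standard calls lost were those of Aoah, C1qc, Cd86, Gpihbp1, S100a9 and Zfp992.

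Genes that mark microglia, or macrophages together with other leukocytes, were among the genes that were lower in S226A brain. Of 16892 genes tested, 31 were lower (0.184%) and 10 were higher (0.0592%) at an adjusted p below 0.05, called the standard criterion here (edgeR's quasi-likelihood test with Benjamini-Hochberg adjustment over all genes). The stringent criterion asked for an adjusted p below 0.01, a change of more than 1 on the log2 scale and an SE below 1. By it, 16 were lower (0.0947%) and 5 were higher (0.0296%). DESeq2 called 39 lower and 23 higher genes by the standard criterion. The median log2 fold change of all genes tested was 0.0027, and 383 genes had an unadjusted p below 0.05. Of the 31 lower genes, 8 were on the list of microglia markers, 1 was on that of border-associated macrophages, and 9 were on that of markers shared by macrophages and other leukocytes. For 29 of the 31 lower genes all 4 S226A brains lay below all 4 WT brains, which held for 1.24% of all genes tested, and for 9 of the 10 higher genes they all lay above, which held for 1.24% as well. Within litters, 30 of the 31 lower genes were lower in the mutant in 4 of 4 litters, and all 10 higher genes were higher in 4 of 4.

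**Figure D1:**
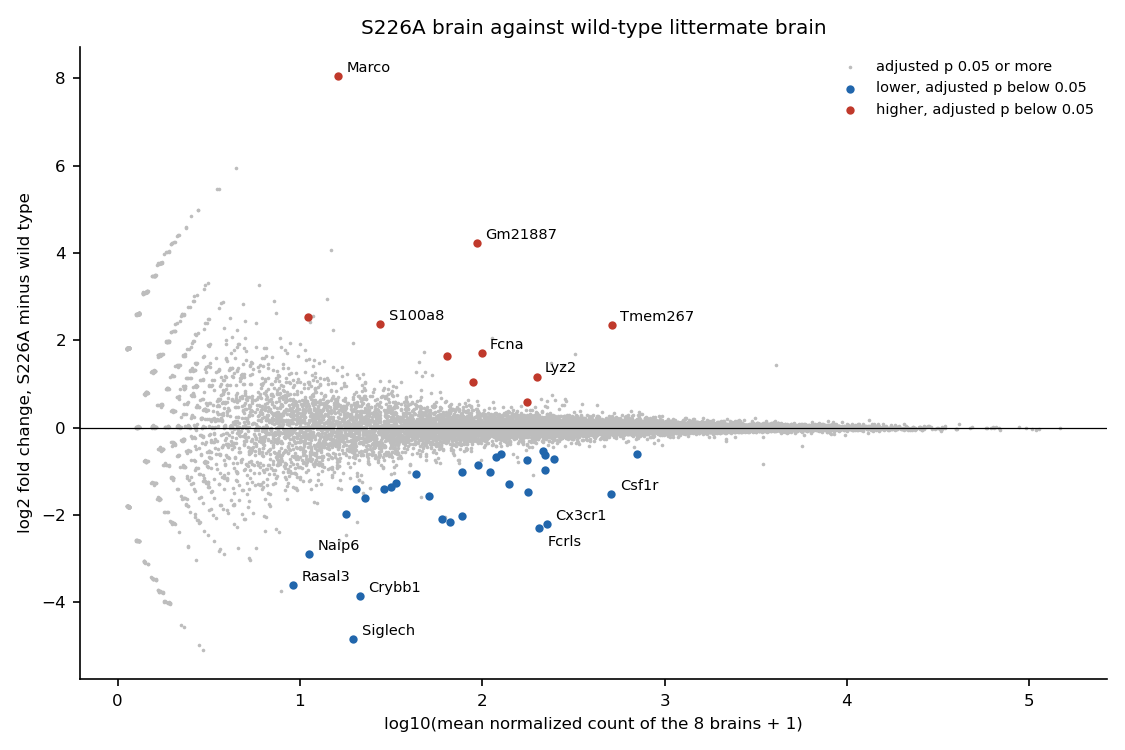
Log2 fold change of S226A minus WT brain (y axis) against the mean normalized count of the 8 brains on a log10 scale (x axis), with 1 point for each gene tested that had a read in these brains. Blue points are the 31 lower and red points the 10 higher genes at an adjusted p below 0.05, with Siglech the lowest at -4.85, while the height of Marco, which had no read in WT brain, is a fitted value and no measure of its fold change.

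Microglia are the resident macrophages of the brain. They descend from the yolk sac, enter the brain early in development, and depend on signalling through the receptor Csf1r and on the transcription factors Spi1 and Irf8. Fetal microglia express a set of surface receptors, such as P2ry12, Cx3cr1 and Siglech, that other macrophages have at lower levels or lack, and they clear dying cells and take part in shaping synapses. Other macrophages sit at the borders of the brain, in meninges, choroid plexus and around vessels, and express Mrc1, Lyve1 and Cd163.

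Microglia markers had negative fold changes throughout in S226A brain. Of the 16 markers on the list, all 16 were tested, 8 were lower by the standard criterion, 5 by the stringent criterion, and 0 were higher. All 16 log2 fold changes were negative, from -4.85 to -0.14, and their median was -1.44, against 0.0027 over all genes. For 11 of the 16 the groups did not overlap. The summed normalized count of the list was 3102 to 3646 in the 4 WT brains and 1672 to 1874 in the 4 S226A brains. In whole tissue, fewer cells of a type and less RNA per cell cannot be told apart.

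Csf1r, the receptor for the growth factors Csf1 and Il34, had the smallest p of all genes. Its normalized counts were 727, 756, 772 and 773 in the WT brains of litters 1 to 4 and 317, 253, 241 and 239 in the S226A brains. The lowest WT brain was more than 2 times the highest S226A brain, and the mutant of litter 1 was the highest of the mutants. Means were 757 ± 21.4 and 263 ± 37.1 (SD, n = 4 each), a log2 fold change of -1.52 (SE 0.079, adjusted p = 1.2e-17). An exact permutation test of the 8 values, made without regard to litter, gave p = 0.0286 (two-sided), the smallest that 4 against 4 brains allow. Every gene whose groups do not overlap has this p, so it adds nothing to the calls of such genes.

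Cx3cr1, the receptor for the neuronal chemokine fractalkine, had 317, 401, 356 and 408 normalized counts in WT and 76.5, 84.2, 91.4 and 68.4 in S226A brains. The levels did not overlap, with a log2 fold change of -2.21 (SE 0.20, adjusted p = 1.25e-09). Fractalkine is encoded by Cx3cl1, which neurons make, and this gene had 1177 and 1169 normalized counts on average and a log2 fold change of -0.0100 (SE 0.21). Fcrls, a scavenger receptor-like molecule that is a marker of mouse microglia, had 268, 349, 409 and 328 in WT and 82.7, 81.9, 59.3 and 51.3 in S226A brains, and its log2 fold change was -2.29 (SE 0.34, adjusted p = 7.27e-05). For both receptors the mutant of litter 4 was the lowest brain.

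P2ry12, a receptor for ADP that steers microglial processes to damage, had 59, 93, 125 and 104 reads in WT and 23, 14, 24 and 22 in S226A brains before scaling, a log2 fold change of -2.16 (SE 0.33, adjusted p = 0.000123). Its neighbor P2ry13, another ADP receptor, had 32.3, 52.9, 43.7 and 48.1 normalized counts in WT and 13.4, 19.6, 21.0 and 14.6 in S226A brains, at -1.37 (SE 0.25, adjusted p = 0.0028). Both lay lower in all 4 mutants than in any WT brain, and WT replicate 1 was the lowest WT brain for both. P2ry13 passed the standard criterion and not the stringent one with litter as a block (adjusted p = 0.0178). Both genes lie within Med12l on the opposite strand, so reads of the genes cannot be told apart where their exons overlap, as those of P2ry12 do.

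Siglech, a sialic acid-binding receptor that signals through Tyrobp, had the most negative log2 fold change of the called genes. It had 24.8, 35.7, 42.7 and 41.6 normalized counts in WT brains and 1.03, 3.46, 0 and 0 in S226A brains, which are 128 reads against 4. No read was found in the mutants of litters 3 and 4. The ratio of WT to S226A was 31.7, with a 95% interval of 12.1 to 118 that covers counting error only, and the fitted log2 fold change was -4.85 (SE 0.99, adjusted p = 0.0103). Crybb1, a crystallin gene that fetal microglia express, had 46.0, 25.8, 29.1 and 52.5 in WT and 6.20, 1.15, 2.47 and 0 in S226A brains, 134 reads against 9, at -3.86 (SE 0.88, adjusted p = 0.0368). These counts were small, and of the 8 fits without 1 library the call held in 5 for Siglech and in 2 for Crybb1, with adjusted p of up to 0.0749 (without S226A replicate 3) and 0.241 (without S226A replicate 2).

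Of the microglia markers that did not pass, the best expressed were Sall1, a transcription factor that neural progenitors also express, at -0.14 (SE 0.26), Olfml3 at -0.16 (SE 0.13), with overlapping levels of 263, 360.3, 377 and 277 in WT and 284, 316, 274 and 271 in S226A brains, and Tmem119 at -0.75 (SE 0.25, adjusted p = 0.729). Exons of Csf1r overlap those of Hmgxb3 on the opposite strand, where reads of either gene cannot be told apart without strand.

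**Figure D2:**
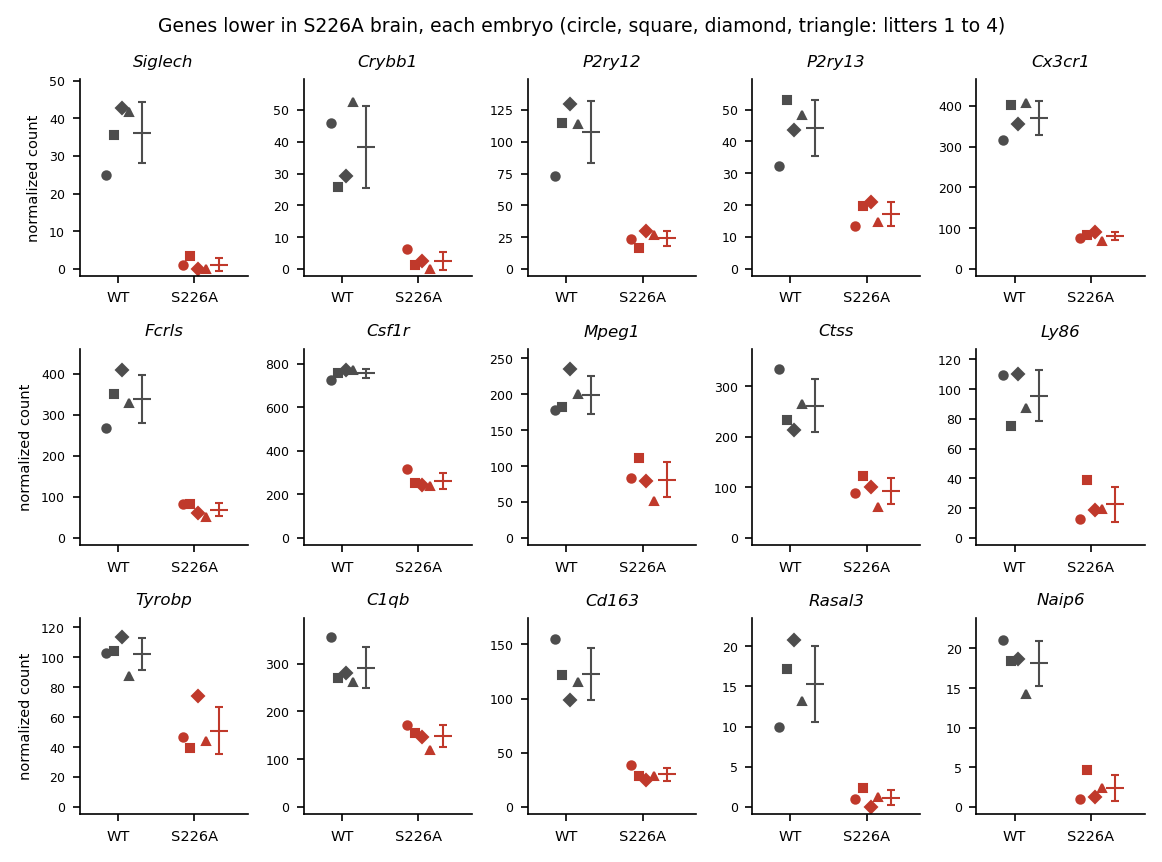
Normalized counts (y axis, from 0) of 15 genes lower in S226A brain, with 1 marker for each embryo, its shape giving the litter, gray for WT and red for S226A, and the mean ± SD of 4 beside them. In each panel all 4 S226A brains lie below all 4 WT brains, for example at 239 to 317 against 727 to 773 for Csf1r.

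Markers shared by macrophages and other leukocytes had mostly negative fold changes as well. Of 24 markers tested, 9 were lower and 1 was higher by the standard criterion, 21 had a negative log2 fold change, and the median was -0.78. The summed normalized count was 4364 to 4660.3 in WT and 3322 to 3584 in S226A brains. Coro1a, an actin-binding protein of leukocytes that neurons also express, had 0.029 (SE 0.090), Adgre1, which encodes the antigen F4/80, had -0.68 (SE 0.18, adjusted p = 0.107), and Fcgr3, an Fc receptor, had -0.60 (SE 0.15, adjusted p = 0.0838). DESeq2 called 13 of the 24, adding Irf8, Adgre1 and Fcgr3.

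The proteases and lysosomal genes on this list included Ctss, which encodes cathepsin S. It had 333, 232, 213 and 265 normalized counts in WT and 88.9, 122, 100.1 and 61.0 in S226A brains, a log2 fold change of -1.48 (SE 0.20, adjusted p = 1.17e-05). Mpeg1, a pore-forming protein of phagocytes, had 178, 182, 235 and 200.3 and 82.7, 111, 79.1 and 51.3, at -1.29 (SE 0.18, adjusted p = 3.2e-05). Laptm5, a lysosomal membrane protein of leukocytes, had 224, 198, 242 and 216 and 131, 143, 145 and 104, at -0.75 (SE 0.11, adjusted p = 3.39e-05). The groups of all 3 genes were apart, and the mutant of litter 4 was the lowest of the mutants for each.

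Ly86, the partner of the Toll-like receptor homolog Cd180, fell by 2.09 on the log2 scale. It had 109, 75.0, 110.3 and 87.5 normalized counts in WT and 12.4, 39.2, 18.5 and 19.5 in S226A brains (SE 0.24, adjusted p = 4.04e-07), and the mutant of litter 2 stood above the other mutants.

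The complement genes C1qa, C1qb and C1qc encode the chains of C1q, which tags cells and synapses for uptake, and microglia are its main source in brain. C1qb had 355, 269, 281 and 262 normalized counts in WT and 172, 156, 147 and 118 in S226A brains, at -0.97 (SE 0.17, adjusted p = 0.000787). C1qa was at -0.73 (SE 0.15, adjusted p = 0.00995) and C1qc at -0.63 (SE 0.14, adjusted p = 0.0215). None of these genes overlapped between groups, and C1qc had 263, 288, 260.1 and 263 in WT and 173, 179.9, 180.4 and 159 in S226A brains. In the 8 fits that each omit 1 library, the call of C1qb held in 8, that of C1qa in 5 and that of C1qc in 1, and the largest adjusted p of C1qa and C1qc came without S226A replicate 4 (0.0622 and 0.121). Of the 17 genes on the list of complement and uptake receptors, 5 were lower and 0 higher, with a median log2 fold change of -0.32. The best expressed of the others were Gas6, a bridging ligand for uptake, at -0.10 (SE 0.16), the fractalkine gene Cx3cl1 given above, and Axl, a receptor of Gas6, at -0.045 (SE 0.082).

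Genes of Fc receptor and ITAM signalling, which acts downstream of activating receptors, were read as a list that overlaps those above. Tyrobp, the adaptor with an ITAM motif that carries signals of Trem2 and of Siglech, had 103, 105, 113 and 87.5 normalized counts in WT and 46.5, 39.2, 74.1 and 43.9 in S226A brains, at -1.01 (SE 0.20, adjusted p = 0.00747), and its call held in 6 of the 8 fits without 1 library, with the largest adjusted p without S226A replicate 2 (0.071). Vav1, an exchange factor for small GTPases in blood cells, had 42.2, 61.5, 63.5 and 63.5 and 41.4, 31.1, 24.7 and 12.2, at -1.06 (SE 0.20, adjusted p = 0.0041). In litter 1 the littermates were nearly level in Vav1, and with litter as a block the adjusted p was 0.0739. Dock2, another exchange factor of leukocytes, had 128, 108, 121 and 128 and 77.6, 51.9, 79.1 and 58.6, at -0.86 (SE 0.16, adjusted p = 0.00266). Of the 18 genes on this list, 5 were lower and 0 higher, with a median of -0.49, where 0.184% and 0.0592% of all genes tested were called. The 5 were Tyrobp, Dock2 and Siglech, which are also on the cell type lists, and Vav1 and Rasal3, which are not. As the list was chosen with earlier results of these data known, its count is no test of the pathway. The best expressed of the others were the kinase gene Lyn at -0.17 (SE 0.084), the phosphatase gene Inpp5d at -0.38 (SE 0.12) and Fcgr3, given above.

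Rasal3, a GTPase-activating protein for Ras in blood cells, was among the most changed genes. It had 9.94, 17.2, 20.8 and 13.1 normalized counts in WT and 1.03, 2.31, 0 and 1.22 in S226A brains, 54 reads against 4, a ratio of 13.4 (95% interval 4.93 to 50.9 for counting error only). The fitted log2 fold change was -3.61 (SE 0.56, adjusted p = 0.000123). Rasal3 (ENSMUSG00000052142.15, chromosome 17, 32390659 to 32403583) lies 1506 kb from Daxx on the same chromosome. Of the 386 genes tested within 10 Mb of Daxx, which were 2.29% of all genes tested, Rasal3 was the only standard call. An antisense transcript overlaps exons of Rasal3, and whether the counting used strand is not given in the sources used here.

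Naip6, a sensor of bacterial flagellin in the Naip family, had 21.1, 18.4, 18.7 and 14.2 normalized counts in WT and 1.03, 4.61, 1.24 and 2.44 in S226A brains. It fell by 2.91 on the log2 scale (SE 0.43, adjusted p = 7.27e-05), from 63 reads to 8. Naip genes are near-identical copies on chromosome 13, so the share of reads given to each is uncertain. Naip5 was at -1.03 (SE 0.36, adjusted p = 0.92) and Naip2 at -0.39 (SE 0.29, adjusted p = 1), both named after their values were seen. Of the 10 Naip and inflammasome genes tested, Naip6 was the only one called. The best expressed were Il18 at -0.19 (SE 0.24), Gsdmd at 0.13 (SE 0.13) and Pycard at 0.00063 (SE 0.20).

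Other lower genes were on none of the lists. By the stringent criterion these were Tifab, a relative of the signalling adaptor Tifa, the interleukin 10 receptor chain Il10ra and Cyth4, an exchange factor for Arf GTPases. Tifab had 27.3, 20.9, 26.0 and 35.0 normalized counts in WT and 11.4, 8.07, 4.94 and 2.44 in S226A brains, at -1.97 (SE 0.34, adjusted p = 0.000932). Il10ra had 42.2, 44.3, 44.7 and 52.5 and 18.6, 21.9, 19.8 and 15.9, at -1.27 (SE 0.25, adjusted p = 0.00661). Cyth4 had 139, 155, 112 and 182 and 76.5, 88.8, 65.5 and 57.4, at -1.02 (SE 0.15, adjusted p = 3.39e-05). The groups did not overlap for these 3 genes, which blood cells express. The remaining 7, lower by the standard criterion alone, were Parvg, Zfp992, Cd86, Aoah, Nckap1l, Unc93b1 and Ehd4. Parvg and Cd86 were not called with litter as a block (adjusted p = 0.17 and 0.0858). Zfp992 belongs to a cluster of near-identical zinc finger genes on chromosome 4, and its counts are uncertain for that reason.

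Growth factors and transcription factors on which microglia depend were compared next. Of 15 genes, 1, Csf1r, was lower, and 14 of 15 had a negative log2 fold change, with a median of -0.18. The ligands of Csf1r, named here after their values were seen, were at -0.25 (SE 0.14) for Csf1 and -0.25 (SE 0.54) for Il34, neither past the test. The transcription factors Irf8, at -0.81 (SE 0.20, adjusted p = 0.0632), and Spi1, at -0.67 (SE 0.24), did not pass in edgeR either, also named after their values were seen, and DESeq2 called Irf8. The best expressed members, which neurons and other brain cells share, were Mef2c at -0.18 (SE 0.11), Mef2a at -0.026 (SE 0.067) and Tgfbr1 at 0.018 (SE 0.093).

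Genes listed for border-associated macrophages went both ways. Of 16, 1 was lower, 1 was higher and 4 had a negative log2 fold change, with a median of 0.24. All 4 S226A brains lay below all 4 WT brains for 1 of the 16, Cd163, and above them for 4, each against 1.24% of all genes tested. Besides Marco, the 4 were Lyve1 at 0.63 (SE 0.16, adjusted p = 0.0804), Folr2 at 0.94 (SE 0.42) and Cd209f at 2.89 (SE 0.78, adjusted p = 0.203). These were named after their values were seen, and Cd209f had at most 15 reads in any brain. The summed normalized count of the list was 3839 to 4594 in WT and 3932 to 4844 in S226A brains, which overlapped. Stab1, Mrc1 and F13a1, the best expressed of the 16, were at -0.052 (SE 0.094), -0.22 (SE 0.10) and 0.12 (SE 0.12), and did not pass. Mrc1, a mannose receptor, had 1057, 1219.9, 1153 and 1179.7 normalized counts in WT and 1158, 925, 901 and 970.4 in S226A brains.

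Cd163, the receptor that clears hemoglobin bound to haptoglobin, was the lower member. It had 155, 122, 98.8 and 115 normalized counts in WT and 38.3, 28.8, 24.7 and 28.1 in S226A brains, at -2.02 (SE 0.32, adjusted p = 0.000184). In each litter the difference was close to the same, from -1.96 to -2.04 on the log2 scale of normalized counts with 1 added.

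Marco, a scavenger receptor of macrophages that binds bacteria and particles, was the higher member of the list. Without a read in WT brain, it was no marker of border-associated macrophages in these WT brains. No WT brain had a read, and the S226A brains had 26.9, 43.8, 39.5 and 11.0 normalized counts, which are 105 reads in all. Against the 3 reads per library that a count of 0 allows, Marco was at least 8.77-fold higher in S226A brain (adjusted p = 1.8e-06). The mutant of litter 4 had the lowest value of the mutants. Vsig4 and Clec4f, markers of Kupffer cells in liver named after their values were seen, had 0 and at most 2 reads in any of the 8 brains, and passed the filter through other tissues. DESeq2 called 3 of the 16, adding Lyve1.

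Fcna and Lyz2, which macrophages and other myeloid cells express, were higher too. Fcna encodes ficolin A, a lectin that starts the complement pathway, and had 41.0, 56.6, 36.4 and 50.3 normalized counts in WT and 191, 123, 129 and 159 in S226A brains, at 1.71 (SE 0.26, adjusted p = 8.32e-05). Lyz2, which encodes lysozyme, had 98.2, 157, 113 and 120.4 and 310.2, 306, 257 and 223, at 1.17 (SE 0.25, adjusted p = 0.0152), and passed the stringent criterion with litter as a block (adjusted p = 0.00168). The WT and S226A levels of both genes were apart. The call of Lyz2 held in 3 of the 8 fits without 1 library, with the largest adjusted p without WT replicate 1 (0.0988), and that of Fcna held in 8.

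Neutrophil genes had mostly positive fold changes. Of 17 markers of neutrophils and granulocyte precursors, 2 were higher, 0 lower and 15 not called, 2 had a negative log2 fold change, and the median was 0.68. Their summed normalized count was 427 to 491 in WT and 544 to 785 in S226A brains. S100a8 and S100a9 encode the chains of calprotectin, an abundant protein of neutrophils. S100a8 had 2.48, 13.5, 7.28 and 10.9 normalized counts in WT and 45.5, 60.0, 39.5 and 34.2 in S226A brains, at 2.37 (SE 0.51, adjusted p = 0.0155). S100a9 had 48.5, 30.7, 17.7 and 27.4 and 55.8, 142, 105 and 80.6, at 1.64 (SE 0.36, adjusted p = 0.0244). Of the 8 fits without 1 library, the call held in 5 for S100a8 and in 3 for S100a9, with the largest adjusted p without S226A replicate 2 (0.1 and 0.274). Ly6g, a defining marker of mature neutrophils, had 0 reads in all 8 brains, and Elane, Mpo and Ctsg, of their precursors, had at most 11 reads in any, all 4 named after their values were seen. DESeq2 called 4 of the 17, adding Mmp8 and Lcn2. The best expressed of the others were Mmp9 at 0.12 (SE 0.19), Prtn3 at 0.11 (SE 0.24) and Ltf at 1.04 (SE 0.53).

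Plau, Hmox1 and Gpihbp1 were higher as well and were on none of the lists. Plau encodes urokinase, a protease of cell migration, and had 42.2, 68.9, 66.6 and 51.4 normalized counts in WT and 137, 119.9, 90.2 and 129 in S226A brains, at 1.05 (SE 0.21, adjusted p = 0.00732), but 0.0632 as adjusted p with litter as a block. Hmox1, which degrades heme, and Gpihbp1, which holds lipoprotein lipase on capillary walls, were higher by the standard criterion alone, and with litter as a block they were not called (adjusted p = 0.0773 and 0.0988). Blood itself was compared through erythroid genes, of which 0 of 11 passed in edgeR or DESeq2 and 2 had an unadjusted p below 0.05, with a median of -0.19. The adult globin genes Hbb-bs, Hba-a1 and Hba-a2 were at -0.15 (SE 0.29), -0.22 (SE 0.30) and -0.22 (SE 0.29). The embryonic globin genes, named after their values were seen, had at most 36 reads in any brain and did not pass, at 2.23 (SE 0.76) for Hbb-y, 3.27 (SE 1.07) for Hba-x and 2.55 (SE 1.45) for Hbb-bh1. Hba-x had 0, 0, 2.08 and 1.09 normalized counts in WT and 8.27, 18.5, 4.94 and 4.88 in S226A brains, which did not overlap. All 3 were called higher in S226A lung, at 3.03, 2.59 and 4.20 (adjusted p = 0.000308, 0.00288 and 0.0184). In S226A liver Hba-x was called lower, at -1.73 (adjusted p = 0.0217), and Hbb-y and Hbb-bh1 were at -1.49 and -1.43 without passing (adjusted p = 0.0535 and 0.272).

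**Figure D3:**
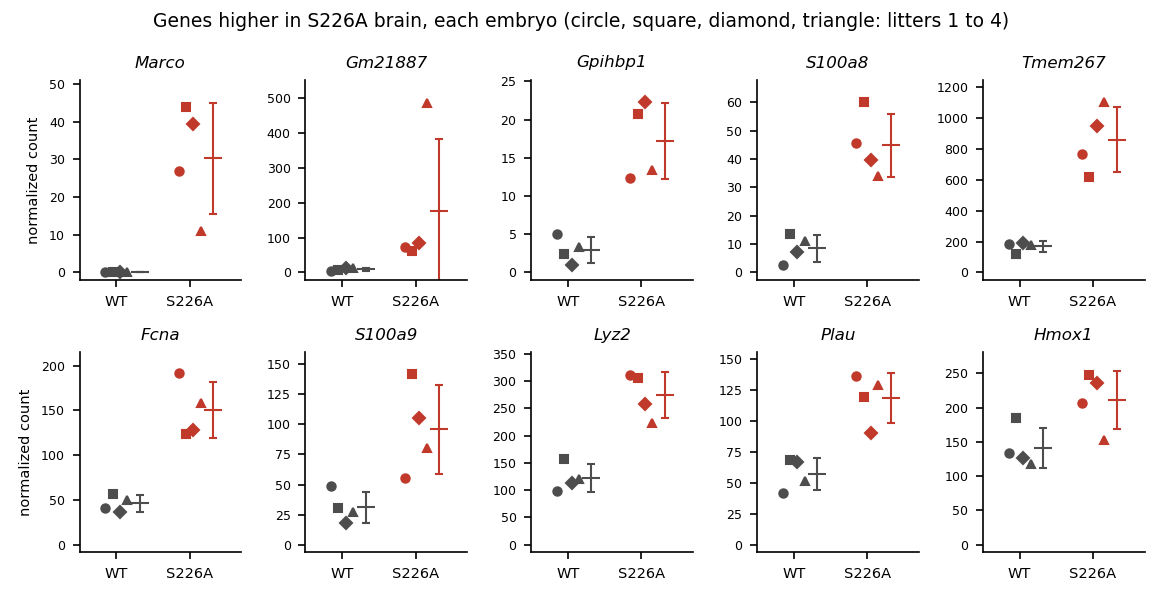
Normalized counts (y axis, from 0) of the 10 genes higher in S226A brain, drawn as in the plot of the lower genes. Marco is at 0 in all 4 WT brains and at 11.0 to 43.8 in the S226A brains, and the mutant of litter 4 stands apart in Gm21887.

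Genes of other blood lineages were at low levels. Among 6 monocyte, 8 B lineage, 7 T and NK cell, 7 mast cell, basophil and eosinophil and 6 megakaryocyte genes, 0 were called in edgeR or DESeq2 and 2, 2, 0, 0 and 1 had an unadjusted p below 0.05, with list medians of 0.11, -0.28, -0.064, -0.023 and 0.53. The summed normalized counts of these lists were at most 314 in any brain, and how large a difference could be detected at this depth was not tested. The best expressed were Ms4a6c at 0.12 (SE 0.32) among monocyte genes, Pax5 at -0.14 (SE 0.27) among B lineage genes, which is also a gene of the midbrain, and Lck at -0.064 (SE 0.35) among T cell genes. Cpa3 of mast cells was at -0.13 (SE 0.43) and Itga2b of megakaryocytes at 0.20 (SE 0.16).

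Marker lists of neurons, glia and vessels held no called gene. Across 11 glutamatergic and 9 GABAergic neuron genes, 13 radial glia and progenitor genes, 7 astrocyte and 9 tested oligodendrocyte lineage genes, 0 passed the standard criterion in edgeR or DESeq2 and 0 had an unadjusted p below 0.05, and the list medians lay between -0.040 and 0.075. Reln, Slc17a6 and Neurod6 of glutamatergic neurons were at -0.031 (SE 0.12), 0.10 (SE 0.15) and -0.11 (SE 0.16), and Gad1, the enzyme that makes GABA, was at -0.038 (SE 0.22). Fabp7 and Slc1a3 of radial glia were at 0.023 (SE 0.22) and -0.044 (SE 0.11), Slc1a2 of astrocytes at -0.041 (SE 0.19) and Pdgfra of oligodendrocyte precursors at -0.031 (SE 0.10). Endothelial genes had a median of 0.072, with Kdr, a receptor for vascular growth factor, at 0.072 (SE 0.10), and mural cell genes one of 0.038, with Rgs5 at 0.18 (SE 0.26). For these vascular lists and for the choroid plexus 0 genes were called by either tool and 0 had an unadjusted p below 0.05, while 2 of 9 meningeal genes had one and 0 were called. Meningeal fibroblast genes had a median of -0.062 and choroid plexus genes one of 0.028, and Ttr, the most abundant choroid plexus transcript, was at 0.067 (SE 0.48). Tissue carried over in dissection was followed through genes of pituitary, muscle and cartilage, with a median of -0.16 over 9 tested, 0 called by either tool and 0 with an unadjusted p below 0.05, and Col2a1 of cartilage at 0.18 (SE 0.42).

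**Figure D4:**
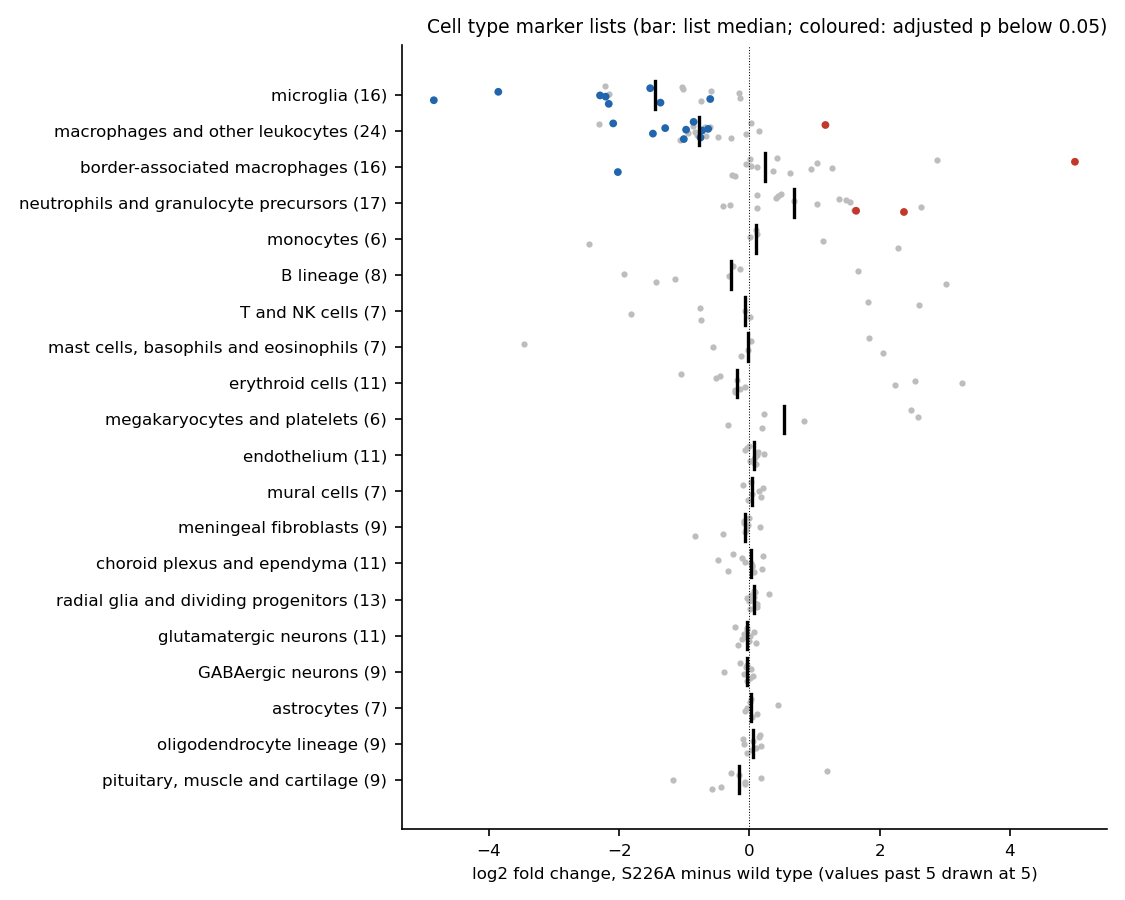
Log2 fold change of S226A minus WT brain (x axis) for the tested members of 20 marker lists (y axis, number tested in brackets), leaving out members without a read in these brains. Blue and red points passed an adjusted p of 0.05 and black bars are list medians. The microglia and leukocyte lists lie to the left, at medians of -1.44 and -0.78, and neural and vascular lists lie within 0.1 of 0.

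Lists of chemokines, Toll-like receptors, interferon-stimulated genes and MHC class I were compared next. Of 11 chemokines and receptors, 14 Toll-like receptor genes, 15 interferon-stimulated genes and 12 MHC class I genes tested, 0 passed the standard criterion in edgeR, and 4, 3, 0 and 3 had an unadjusted p below 0.05. DESeq2 called 2 of the chemokine genes, Ccl9 among them, and 1 class I gene, H2-K1, which was also called with litter as a block (adjusted p = 0.00617). Their medians were -0.27, -0.20, 0.021 and 0.16. Cxcl12, a chemokine that positions migrating cells, was at 0.017 (SE 0.13) and its receptor Cxcr4 at -0.022 (SE 0.11). Myd88, the adaptor of most Toll-like receptors, was at -0.16 (SE 0.10), Ddx58, a sensor of viral RNA, at -0.22 (SE 0.21) and H2-D1, a class I heavy chain, at 0.22 (SE 0.12). The p53 targets, among them Mdm2 at 0.084 (SE 0.054), had a median of 0.084, with 0 of 11 called in edgeR or DESeq2 and 0 with an unadjusted p below 0.05.

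Upstream sequences of 7 called genes of the microglia, macrophage and leukocyte lists, 6 lower and 1 higher, chosen after their values were seen, are shown so that the regions before them can be compared. Each is the 250 bases before the transcript start as given by RefSeq (build GRCm38), written 5′ to 3′ on the strand of the gene, with any match to GAGGAA or its reverse complement, searched on both strands, in capitals. GAGGAA is the core of the site of PU.1, the protein of Spi1.
Fcrls (chr3:87263525-87263774, minus strand): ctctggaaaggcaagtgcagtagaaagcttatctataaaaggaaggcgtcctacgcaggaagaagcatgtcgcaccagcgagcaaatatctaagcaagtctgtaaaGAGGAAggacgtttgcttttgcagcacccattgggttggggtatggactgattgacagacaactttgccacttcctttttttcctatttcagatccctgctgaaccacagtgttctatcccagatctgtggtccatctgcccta
Ctss (chr3:95526536-95526785, plus strand): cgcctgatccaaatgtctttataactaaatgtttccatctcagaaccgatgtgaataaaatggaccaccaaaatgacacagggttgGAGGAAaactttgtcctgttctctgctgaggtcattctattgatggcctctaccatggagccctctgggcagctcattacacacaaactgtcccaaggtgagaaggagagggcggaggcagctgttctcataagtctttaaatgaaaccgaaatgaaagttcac
Cx3cr1 (chr9:120068297-120068546, minus strand): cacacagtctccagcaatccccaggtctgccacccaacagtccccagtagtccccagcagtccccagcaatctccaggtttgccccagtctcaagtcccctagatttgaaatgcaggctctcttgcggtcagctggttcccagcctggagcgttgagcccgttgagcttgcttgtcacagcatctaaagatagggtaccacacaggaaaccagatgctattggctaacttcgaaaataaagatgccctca
P2ry12 (chr3:59262986-59263235, minus strand): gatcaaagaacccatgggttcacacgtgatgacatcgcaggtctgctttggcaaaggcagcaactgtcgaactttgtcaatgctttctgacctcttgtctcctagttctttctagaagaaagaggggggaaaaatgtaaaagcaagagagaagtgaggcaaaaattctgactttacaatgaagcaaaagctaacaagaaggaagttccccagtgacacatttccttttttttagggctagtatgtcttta
Ly86 (chr13:37345095-37345344, plus strand): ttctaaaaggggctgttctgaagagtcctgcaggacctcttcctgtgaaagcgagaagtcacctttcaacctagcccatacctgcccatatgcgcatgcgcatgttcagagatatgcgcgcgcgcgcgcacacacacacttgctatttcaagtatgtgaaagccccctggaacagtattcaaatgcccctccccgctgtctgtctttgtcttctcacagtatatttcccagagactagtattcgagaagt
Mpeg1 (chr19:12460520-12460769, plus strand): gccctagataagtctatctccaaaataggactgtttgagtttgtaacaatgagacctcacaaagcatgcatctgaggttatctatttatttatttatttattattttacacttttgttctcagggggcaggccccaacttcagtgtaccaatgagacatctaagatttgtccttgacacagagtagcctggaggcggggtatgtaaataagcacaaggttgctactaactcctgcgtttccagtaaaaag
Marco (chr1:120505025-120505274, minus strand): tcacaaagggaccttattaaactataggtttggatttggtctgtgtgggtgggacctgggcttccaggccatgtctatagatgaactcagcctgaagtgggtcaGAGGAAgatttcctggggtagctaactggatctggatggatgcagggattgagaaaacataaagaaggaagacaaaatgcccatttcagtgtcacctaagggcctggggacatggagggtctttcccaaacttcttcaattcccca
Fcrls, Ctss and Marco each held 1 match in this window, and Cx3cr1, P2ry12, Ly86 and Mpeg1 held none. Of the 41 called genes 28 matched the RefSeq table by symbol, and a match was found for 10 of the 22 lower genes among them (45.5%) and 3 of the 6 higher genes. Among tested genes with a RefSeq promoter, 12992 in number, 26.2% had one, and of all 32851 promoters 23.3%. A match is a run of letters and no test was made of it.

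The study examined the surroundings of 11 genes for endogenous retroviruses, chosen because they were higher in both mutants. As it chose them on libraries of this series, mainly from liver and for Tmem267 also from these brains, their direction is not independent evidence. Of these, 2 were higher and 0 lower in S226A brain, Tmem267 and Gm21887, and the median was 0.092. Aplp1, Csmd3 and Gria4, neuronal genes on this list, were at -0.0012 (SE 0.13), 0.0084 (SE 0.21) and 0.050 (SE 0.16).

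Tmem267 encodes a transmembrane protein (ENSMUSG00000074634.12, chromosome 13, 119488039 to 119611059). It had 184, 118, 194 and 179 normalized counts in WT and 765, 620.5, 948 and 1106 in S226A brains, at 2.35 (SE 0.41, adjusted p = 0.00119). The lowest mutant had more than 3 times the highest WT brain. It was also the only gene called in Y130A brain (0.00592% of genes tested), at 2.40 (adjusted p = 0.0101), and was at 2.18 in S226A lung and 2.26 in S226A liver. Exons of another protein-coding gene on the opposite strand, 3110070M22Rik, overlap those of Tmem267. Within 10 Mb of Tmem267, it was the only 1 of 50 genes tested that was called.

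Tmem267 begins 79.0 kb beyond the end of Nnt, a mitochondrial enzyme gene that carries a deletion in C57BL/6J and is intact in C57BL/6N. Nnt had 42.2, 59.0, 66.6 and 61.3 normalized counts in WT and 62.0, 66.9, 82.8 and 97.6 in S226A brains, means of 57.3 ± 10.5 and 77.3 ± 16.2 (SD, n = 4 each), and an unpaired exact permutation test gave p = 0.0571 (two-sided). In 4 of 4 litters the mutant had the higher value. WT replicate 3 exceeded the lowest mutant, so the groups overlapped, and Nnt was not called (log2 fold change 0.43, SE 0.25). Wdfy1, whose level is known to differ between these substrains, had 2963, 3056, 817 and 2792 normalized counts in WT and 3100.3, 815, 834 and 3051 in S226A brains. WT replicate 3 and S226A replicates 2 and 3 were thus low, and the other 5 brains were more than 3 times higher, so that embryos of either genotype had either level. The part of substrain background in the results was not tested.

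Gm21887 (ENSMUSG00000095562.7, chromosome X, 170009659 to 170019281) is a predicted gene at the end of chromosome X. It had 3.73, 7.38, 12.5 and 13.1 normalized counts in WT and 72.4, 62.3, 84.0 and 485 in S226A brains, at 4.22 (SE 0.82, adjusted p = 0.00511). All 4 mutants were above all WT brains, and the mutant of litter 4 was more than 5 times any other. Without that library the adjusted p was 0.154, and the call held in the other 7 fits without 1 library. Genes at this end of chromosome X exist in similar copies, so its counts are uncertain.

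The lower genes were then read in the other S226A tissues, which came from the same embryos apart from 1 WT lung. The study described a WT lung of nearly the same label as a possible outlier in its counts of transposable elements. No fit without this lung was made here. In S226A lung, where 1.02% of genes were lower and 0.852% higher by the standard criterion, 13 of the 31 genes were lower, 0 higher and 18 not called, with a median of -0.67 against -1.40 in brain. In S226A liver, where 5.54% were lower and 6.14% higher, 14 were lower, 10 higher and 7 not called, with a median of -0.45. Csf1r was at -1.13 in lung and -1.61 in liver, Cx3cr1 at -1.25 and -1.60, and Ctss at -1.13 and -1.04, all called lower. Siglech was called lower as well, at fitted values of -6.74 (SE 1.59) and -5.37 (SE 1.11). These have wide errors, and its effect in brain was not called different from that in lung or liver (adjusted p = 0.881 and 0.97, edgeR). Tyrobp, Vav1, Dock2 and Laptm5 were higher in liver, at 0.59, 0.73, 0.59 and 0.43. Of the 10 genes higher in brain, 7 were higher in lung and 0 lower, and 5 were higher and 3 lower in liver.

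The difference of the S226A effects was tested for all genes. The fit has no term for the embryo, so tissues of the same embryo were treated as independent. Between brain and lung 21 genes differed (0.124%), and 6 of them were called in brain. The count was 59 with DESeq2, which called all 6, and 7 in a fit of only the 16 libraries compared, which called Marco but not the other 5 (adjusted p = 0.0616 for Ly86, 0.0888 for Naip6 and Ehd4, 0.169 for Rasal3 and 0.196 for Lyz2). In the fit of all libraries Rasal3 differed by -3.31 (adjusted p = 0.0119), Naip6 by -2.57 (adjusted p = 0.0119) and Ly86 by -2.20 (adjusted p = 0.000199), each lower in brain. Ehd4 differed by -0.59 (adjusted p = 0.0209). Marco and Lyz2 differed in the other direction, by 7.05 (adjusted p = 0.00419) and 1.58 (adjusted p = 0.0154). Rasal3 was at -0.30 and Naip6 at -0.34 in lung, neither of them called there. The fitted difference of Marco rests on WT brains without a read and does not measure its size.

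Between brain and liver 626 genes differed (3.71%), 23 of them called in brain. DESeq2 gave 1019, with all 23 among them, and in a fit of only the 16 libraries compared 21 of the 23 held, without P2ry12 (adjusted p = 0.0655) and Ly86 (0.0593). The C1q genes and Cd163 fell further in liver, with C1qa at -3.26, C1qb at -2.18, C1qc at -2.79 and Cd163 at -5.33, and the differences were 2.53 (adjusted p = 2.58e-11), 1.21 (adjusted p = 0.00039), 2.15 (adjusted p = 2.99e-10) and 3.31 (adjusted p = 3.47e-05). Resident macrophages of the fetal liver, the Kupffer cells, express these genes. Fcna was at -2.46 in liver and differed by 4.18 (adjusted p = 1.65e-11), so that it was lower in liver and higher in brain. Rasal3 and Naip6 were at 0.59 and 0.64 in liver, and they differed by -4.20 (adjusted p = 1.01e-05) and -3.55 (adjusted p = 2.84e-06). S100a8 and S100a9, higher in all 3 S226A tissues, were at 1.25 and 1.46 in liver and 1.65 and 1.83 in lung, and their effects were not called different.

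**Figure D5:**
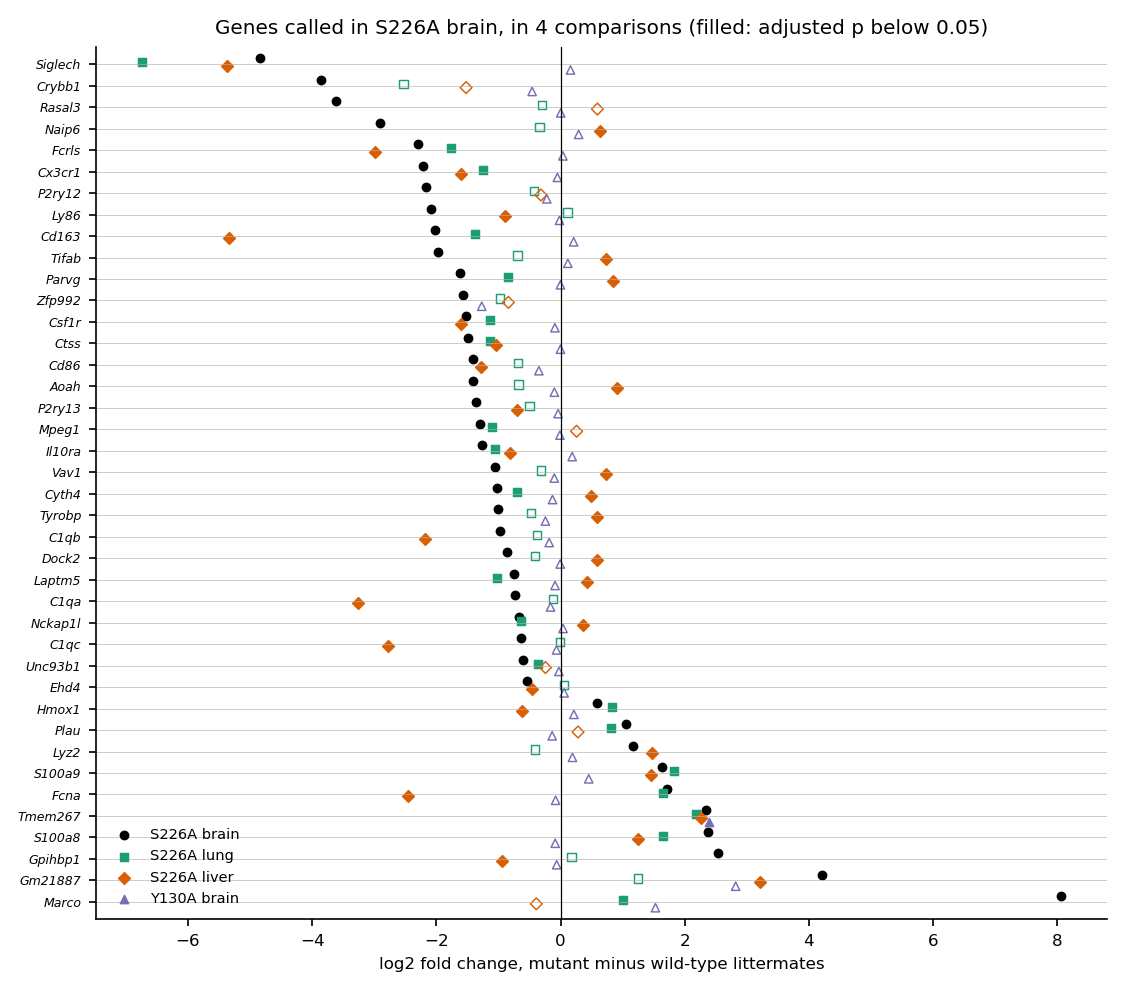
Log2 fold change of mutant minus WT littermates (x axis) for 40 of the 41 genes called in S226A brain (y axis), in S226A brain, S226A lung, S226A liver and Y130A brain, filled where the adjusted p is below 0.05. No lower gene is filled for Y130A brain, and Tmem267 lies at 2.18 to 2.40 in all 4 comparisons.

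In Y130A brain, compared with its own WT littermates, the lower genes of S226A brain were not called. Their median log2 fold change there was -0.026, and Csf1r was at -0.090, Cx3cr1 at -0.050, Fcrls at 0.039, Ctss at -0.00090 and Rasal3 at 0.0033. The values ran from -1.27 (SE 0.30, adjusted p = 0.778) for Zfp992, against -1.56 in S226A brain, to 0.29 for Naip6, and the next lowest was Crybb1 at -0.46. Of the higher genes, Gm21887 was at 2.82 (SE 0.72, adjusted p = 0.778) and Marco at 1.53 (SE 0.80, adjusted p = 1) in Y130A brain. Those 8 brain libraries held 44523912 to 53050330 reads on genes, more than the S226A set, and no library is shared between these comparisons. The S226A effect differed from the Y130A effect in 14 genes (0.0829%), all of them called in S226A brain, 13 with a lower and 1 with a higher value in S226A. Those with the largest differences were Rasal3 at -3.61 (adjusted p = 0.00683), Naip6 at -3.20 (adjusted p = 0.00177), Fcrls at -2.33 (adjusted p = 0.0142), Cd163 at -2.23 (adjusted p = 0.00972), Cx3cr1 at -2.16 (adjusted p = 7.3e-06), Tifab at -2.09 (adjusted p = 0.0249) and Ly86 at -2.08 (adjusted p = 0.000286). Csf1r differed by -1.43 (adjusted p = 3.36e-12), Ctss by -1.48 (adjusted p = 0.0044), Mpeg1 by -1.28 (adjusted p = 0.00683), Cyth4 by -0.89 (adjusted p = 0.0474), Laptm5 by -0.66 (adjusted p = 0.0474) and Ehd4 by -0.60 (adjusted p = 0.0402). Fcna differed by 1.79 (adjusted p = 0.0139). Without WT replicate 1 or without S226A replicate 4 this count was 9, and with DESeq2 it was 26, with all 14 among them. A fit of only the 16 libraries compared also gave 14, but 9 of these genes held in it, and Naip6 (adjusted p = 0.0903), Laptm5 (0.201), Tifab (0.202), Cyth4 (0.236) and Ehd4 (0.295) did not. P2ry12, at -0.22 in Y130A brain, differed by -1.94 (adjusted p = 0.0828) and Siglech by -5.01 (adjusted p = 0.167), so that for these a difference between the mutations was not shown.

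Left out 1 at a time, the 8 brains kept 21 of the 31 lower and 3 of the 10 higher genes at an adjusted p below 0.05 in every fit. The 10 genes that were stringent and lower in each of these fits were Rasal3, Naip6, Fcrls, Cx3cr1, P2ry12, Ly86, Cd163, Csf1r, Ctss and Mpeg1, and Fcna was the 1 higher gene. Among the remaining calls, Plau held in 6 of the 8 fits, Zfp992 in 4, Parvg and Gpihbp1 in 3, and Cd86, Aoah and Hmox1 in 2. Their largest adjusted p was 0.0667 for Plau, 0.0696 for Zfp992, 0.149 for Parvg, 0.121 for Gpihbp1, 0.177 for Cd86, 0.53 for Aoah and 0.257 for Hmox1. With litter as a block, Zfp992 was a stringent call (adjusted p = 0.00926), and 35 of the 41 standard calls and 18 of the 21 stringent calls held. In a fit of only the 8 brain libraries, in which 39 of the 41 genes were tested, 24 standard and 10 stringent calls held, and with litter as a block in that fit 19 and 9 held. No called gene changed direction in any fit.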

How the data were processed

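RNA of whole brain from 4 S226A/S226A and 4 wild-type embryos was sequenced. Reads were trimmed with Trim Galore 0.6.5, checked with FastQC 0.11.5 and aligned with STAR 2.6.0b to GRCm38, as the submitters' processing notes and the study's methods state, and STAR counted reads per gene of GENCODE M19. The authors deposited these raw counts, without normalization, for 20456 genes (20387 protein coding), and the 8 brain libraries held 20318413 to 25051861 reads on genes. Intervals for counts cover counting error only. Whether the counting used strand is not given in the sources used here.

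Counts of all 47 libraries were fitted in edgeR 4.0.16 (R 4.3.3) with 1 coefficient per group after TMM scaling and a filter (minimum count 10, minimum total 15), so that all groups share 1 estimate of the spread. A gene could pass this filter through another tissue. Genes met the stringent criterion (adjusted p below 0.01, log2 fold change beyond 1, standard error below 1, with the standard error derived from the fold change and the F statistic) or the standard criterion (adjusted p below 0.05). DESeq2 1.42.0, RLE size factors, no scaling, no filter, the 8 brain libraries alone, litter as a block and leaving out each library were alternatives. Single genes were tested by exact permutation of log2(normalized count + 1), without regard to litter. Promoters and coding sequence came from RefSeq and GENCODE tables.

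Littermates are paired by the litter numbers in the labels, and the study matched them by litter and sex. Deviations from the group means correlated at -0.0655 to 0.0766 between littermates, with 0 of 4 pairs above 0.1. Replicate libraries differed by more than sampling noise, with a chi-square of at least 4.09 per degree of freedom, so none was a duplicate. Embryos are separate animals.

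The genes and lists described here were chosen with earlier results of these data known. Named genes were every stringent call, the other standard calls by name, with values where they are on a list, up to 3 best expressed other members of each list, Daxx, Tmem267, Nnt and sex-linked genes, and the genes called in tests of a difference. Lists have counts and medians and no test. Ahsp, Xist, Mog, Prl, Cga, Naip1 and Entpd4 were not tested. Results of some genes are not reported here, although the counts include them.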

Additional observations from a re-analysis of the deposited data

Results flagged for a closer look

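Single brains stood far from the others of their group in 5 of 86 gene and group combinations examined, where chance flags about 5%. These were C1qc in WT replicate 2 (288 normalized counts, the highest WT brain), Csf1r in S226A replicate 1 (317, the highest mutant), Gm21887 in S226A replicate 4 (485), Vav1 in WT replicate 1 (42.2, the lowest WT brain) and Daxx in WT replicate 1 (1245, the highest). Without S226A replicate 4, the adjusted p of Gm21887 was 0.154.

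The S226A effect in brain differed from that in lung, by the test of the difference itself on the log2 scale, for Marco (7.05), Lyz2 (1.58), Ehd4 (-0.59), Ly86 (-2.20), Naip6 (-2.57) and Rasal3 (-3.31), at adjusted p of 0.000199 to 0.0209 (edgeR).

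With only the 16 libraries compared, Marco alone of these 6 passed.

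It differed from that in liver for Rasal3 (-4.20), Naip6 (-3.55), P2ry12 (-1.84), Ly86 (-1.20), Cd163 (3.31), Tifab (-2.70), Parvg (-2.47), Aoah (-2.31), Mpeg1 (-1.55), Vav1 (-1.78), Cyth4 (-1.52), Tyrobp (-1.59), C1qb (1.21), Dock2 (-1.45), Laptm5 (-1.18), C1qa (2.53), Nckap1l (-1.04), C1qc (2.15), Hmox1 (1.20), Fcna (4.18), Gpihbp1 (3.47) and Marco (8.45). The values of Marco rest on wild-type brains without a read and do not measure its size. Positive values are those higher, or less far below wild type, in brain than in liver. Of these genes Naip6, Tifab, Parvg, Aoah, Vav1, Cyth4, Tyrobp, Dock2, Laptm5 and Nckap1l were called lower in brain and called higher in liver.

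Against Y130A brain, the effect differed for Rasal3 (-3.61), Naip6 (-3.20), Fcrls (-2.33), Cx3cr1 (-2.16), Ly86 (-2.08), Cd163 (-2.23), Tifab (-2.09), Csf1r (-1.43), Ctss (-1.48), Mpeg1 (-1.28), Cyth4 (-0.89), Laptm5 (-0.66), Ehd4 (-0.60) and Fcna (1.79), with adjusted p of 3.36e-12 to 0.0474 (edgeR).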

How the results depend on the processing

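No called gene changed direction in the 611 results of genes under alternatives, of which 496 stayed on their side of the threshold and 115 were no longer called. The stringent count of 21 (16 lower, 5 higher) was 32 with DESeq2, 9 of them higher, and 13, 7 of them lower, with only the 8 brain libraries and litter as a block. The standard count of 41 (31 lower, 10 higher) was 62 with DESeq2, 23 of them higher, and 24, 17 of them lower, with the 8 libraries and block. Over the fits without 1 library, stringent counts ranged from 13 to 19 (lower 10 to 17, higher 1 to 4) and standard counts from 30 to 41 (lower 23 to 34, higher 5 to 11). Leaving out wild-type replicate 2, or S226A replicate 4, gave 13 stringent calls (12 and 13 shared with the 21), and leaving out wild-type replicate 4 gave 30 standard calls (29 shared with the 41). The count of stringent higher genes was 1 without wild-type replicate 2. With litter as a replicate block in all 47 libraries, the pairing gave 20 stringent and 36 standard calls, 18 and 35 of them shared with the fit without it, and it gained the standard call of H2-K1.

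For differences of effects, DESeq2 gave 59 genes against lung (edgeR 21), 1019 against liver (626) and 26 against Y130A brain (14), and only the 16 libraries compared gave 7 against lung. Without 1 brain these counts were 16 to 20, 498 to 528 and 9 to 15. The cause was not tested. Only the 8 brain libraries gave 31 standard and 16 stringent calls. RLE, no scaling and no filter gave 42, 45 and 39 standard calls. Genes with few reads, such as Siglech, Crybb1 and Rasal3, limit what the depth can show.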
